A study of Astatotilapia calliptera and Pundamilia nyererei and Oreochromis niloticus with 31 samples.

Results

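5S-Deu-L2-1, 5S-Deu-L2-3 and 5S-Deu-L2-4 are the only short interspersed nuclear elements (SINEs) among the families of transposable elements (TEs) in the curated annotation of Lake Malawi cichlids, and they were chosen for that class. They make up 3 of the 557 families measured, and all 3 had a value in every library. The study sequenced small RNAs (sRNAs) of wild-type cichlid fishes of East Africa and profiled those that map to TEs. The libraries used here come from testes of *Astatotilapia calliptera* (AC, 4 libraries), *Tropheops* sp. 'mauve' (TM, 4 libraries) and *Maylandia zebra* (MZ, 2 libraries), from AC ovaries (3 libraries) and from AC muscle (1 library). Each library stands for the tissue of fish matched by body size within a species, and specimen size varied between species. The MZ males were captive-bred adults from a commercial supplier, whereas AC and TM were kept in the study's own tanks, so species and origin cannot be told apart in comparisons with MZ. Ages in months or years are not given in the sources used here.

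SINEs are short retroelements that encode no protein. A 5S-Deu-L2 SINE starts with a head derived from 5S ribosomal RNA, which carries an internal promoter for RNA polymerase III, continues with the Deu domain shared by several ancient vertebrate SINEs, and ends in a tail related to the end of an L2 long interspersed nuclear element (LINE). SINEs are thought to be copied by the proteins of the LINE whose tail they share. Piwi-interacting RNAs (piRNAs) are the small RNAs with which the animal germline silences TEs, and in fishes they are made in both ovaries and testes.

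The deposited value of a family is a regularised log (rlog) value, the log2 of its normalised read number after shrinkage of poorly covered differences. A difference of 1 is a 2-fold difference. Reads of AC, TM and MZ were all aligned to the AC genome with up to 2 mismatches. Reads from TM or MZ copies that differ from that genome can have been missed, which was not tested. The authors counted reads of 24 to 35 nucleotides over the copies of each family. They state no strand option for this count, so sense and antisense reads are not told apart here. Length was the only criterion by which reads were taken as piRNAs. A read with several equally good positions was reported at 1 of them, chosen at random, so reads common to the 3 SINEs can have been split among them, and the 3 families are not independent measurements. Values were not divided by the length or copy number of a family, so levels set side by side between families are read numbers and not levels per copy. The table holds no genes, so the organ labels could not be checked against marker genes. In bulk tissue, fewer cells of a type and less RNA per cell cannot be told apart.

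The library totals of 24 to 35 nucleotide reads were lowest for muscle, the 3 AC ovary libraries and MZ testes replicate 1. The paper reports that some ovary samples failed quality control and were left out. It names yolk, which may disturb RNA purification, as the most likely reason. Whether RNA quality affected the AC ovary libraries kept was not tested. Turned back to the linear scale, the values correspond to about 10549 to 34003 SINE reads in a testis library, 2526 to 6940 in an AC ovary library and 186 in muscle. One DNA transposon family, NA-DNA-22, took a share of the summed TE values that varied widely, at 1.45 to 1.85% in AC testes, 2.21 to 4.70% in TM testes, 2.37 and 8.93% in MZ testes, 9.89 to 24.4% in AC ovaries and 37.6% in muscle. It has the highest summed value of the table over all libraries, and its share enters every value that is expressed per TE read.

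The SINEs stood lower in testes than in ovaries of AC. 5S-Deu-L2-1 was at rlog values of 10.29, 10.56, 10.57 and 10.50 in the AC testis libraries, against 11.47, 11.59 and 11.30 in the AC ovary libraries. 5S-Deu-L2-3 was at 10.98, 11.10, 11.13 and 11.07 in AC testes, against 12.14, 12.19 and 11.66 in AC ovaries. 5S-Deu-L2-4 was at 11.24, 11.33, 11.35 and 11.28 in AC testes, against 12.67, 12.45 and 11.90 in AC ovaries. For each of the 3 families every testis library lay below every ovary library. The testis libraries of a family stayed within 0.3 of each other, while AC ovaries replicate 3 was the lowest ovary library of all 3 families.

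**Figure D1:**
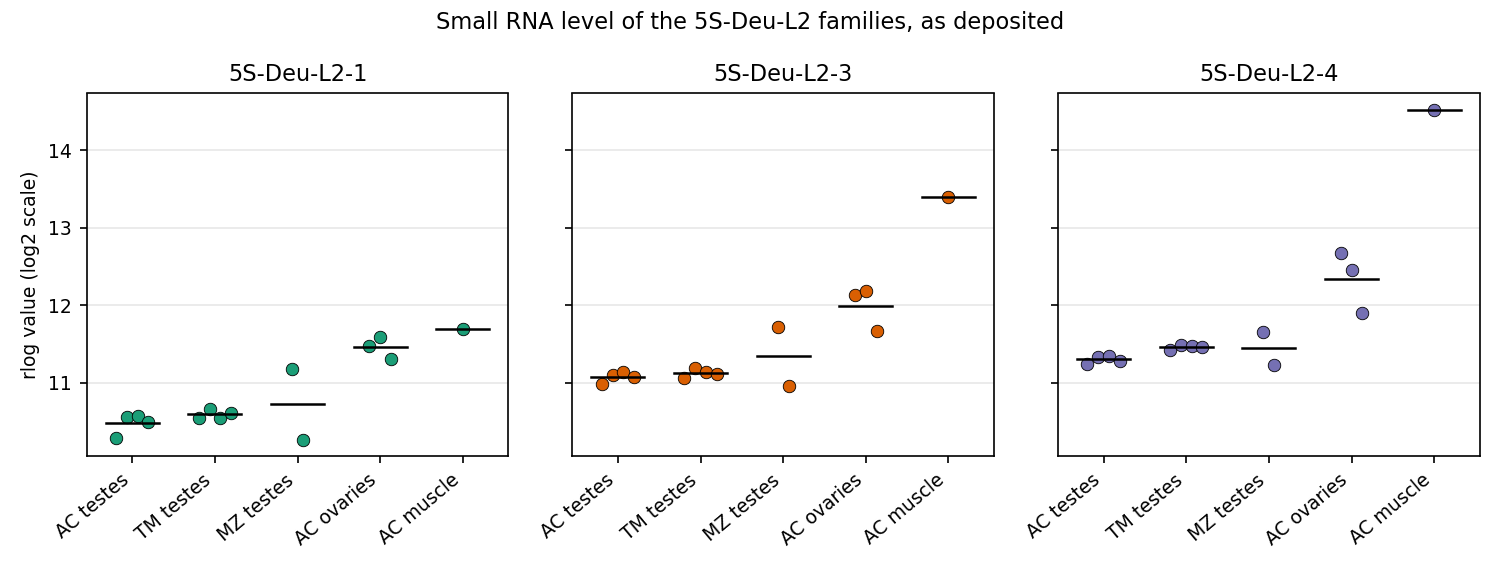
rlog value (log2 scale) of each 5S-Deu-L2 family in each library, 1 panel per family, with points for libraries and a bar for the group mean. The AC testis points of 5S-Deu-L2-4 lie between 11.24 and 11.35 and its AC ovary points between 11.90 and 12.67, and the single muscle point is the highest of each panel, while relative to all 24 to 35 nucleotide reads muscle is the lowest and the AC testis mean lies above the AC ovary mean.

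5S-Deu-L2-1 averaged 10.48 ± 0.13 in AC testes and 11.45 ± 0.14 in AC ovaries (SD, n = 4 and 3), a log2 fold change of −0.97 (SE 0.11, adjusted p = 0.000283, limma with Benjamini-Hochberg adjustment over 554 families). 5S-Deu-L2-3 averaged 11.07 ± 0.06 in AC testes and 11.99 ± 0.29 in AC ovaries, a log2 fold change of −0.92 (SE 0.13, limma adjusted p = 0.000750). 5S-Deu-L2-4 averaged 11.30 ± 0.05 in AC testes and 12.34 ± 0.39 in AC ovaries, a log2 fold change of −1.04 (SE 0.16, limma adjusted p = 0.00102). On the linear scale the deposited testis value was 0.509, 0.527 and 0.486 of the deposited ovary value for 5S-Deu-L2-1, 5S-Deu-L2-3 and 5S-Deu-L2-4. Ordered from the most negative fold change, the 3 SINEs stood at places 12, 15 and 9 of the 554 families.

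The SINEs stood below the median log2 fold change of all families between AC testes and AC ovaries, which was −0.01. The deposited scaling sets the typical family equal between libraries, so that median cannot show a shift of the whole table. Of all families tested, 42.1% passed the test in either direction and 21.3% were lower in AC testes, whereas all 3 SINEs were lower. Every AC testis library lay below every AC ovary library for 24% of the families. Under this scaling 115 families were higher and 118 lower in AC testes, counts that depend on the scaling as given next.

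**Figure D2:**
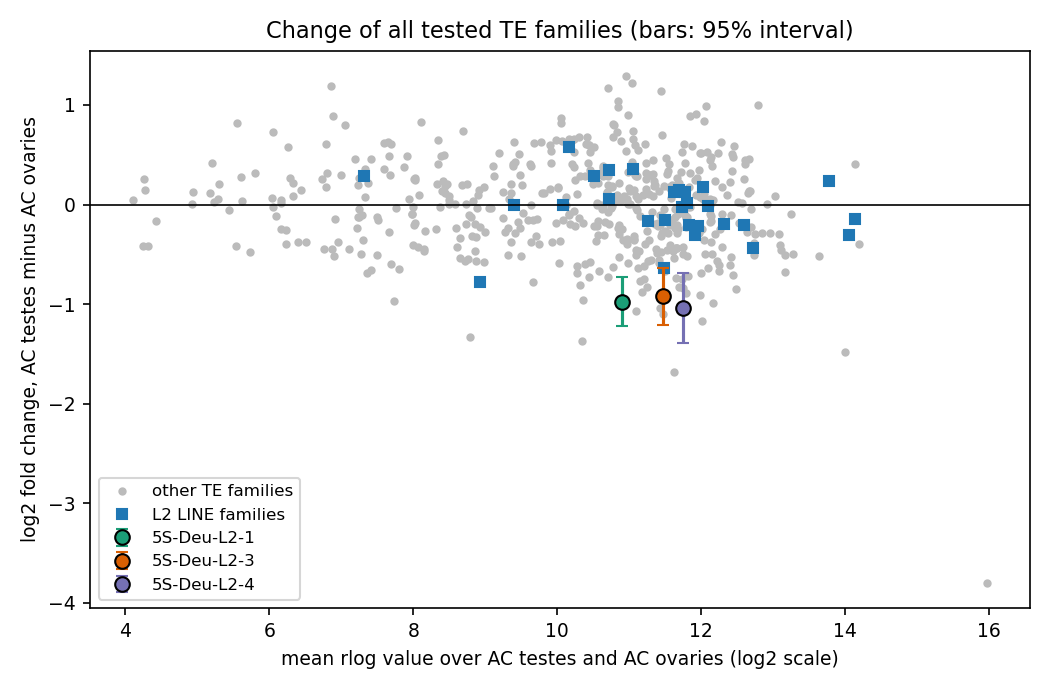
Log2 fold change of AC testes minus AC ovaries (deposited scaling) against the mean rlog value for the 554 families tested, with the SINEs and the L2 LINE families in colour and 95% confidence intervals on the SINEs. The SINEs lie at −0.97, −0.92 and −1.04, below all 28 L2 LINE families; scaled to all 24 to 35 nucleotide reads, all 3 changes turn positive, at 0.39, 0.44 and 0.32.

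The deposited values set the typical TE family equal between libraries, so they show a family relative to the other families and not relative to all sRNAs. When every 24 to 35 nucleotide read was taken as the base, the median of all families moved to 1.35 higher in AC testes, and 304 families were higher and 1 lower. Scaled to the sum of all TE values, 267 were higher and 28 lower, and with NA-DNA-22 left out of that sum 153 were higher and 87 lower. Per 24 to 35 nucleotide read the SINEs were at log2 fold changes of 0.39 (95% confidence interval −0.77 to 1.54), 0.44 (−0.71 to 1.59) and 0.32 (−0.83 to 1.47) for 5S-Deu-L2-1, 5S-Deu-L2-3 and 5S-Deu-L2-4, with limma adjusted p = 0.521, 0.467 and 0.593. Relative to the shifted median these are −0.97, −0.92 and −1.03. The direction between AC testes and AC ovaries therefore turned with the scaling, while the distance from the median of all families does not depend on it.

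The levels per read show the spread behind those intervals. All SINE reads together came to about 1433, 1619, 1583 and 1588 RPM (reads per 1000000 reads of 24 to 35 nucleotides) in AC testes, against 649, 1341 and 1992 in AC ovaries. The ovary libraries spanned a 3-fold range on both sides of the testis libraries. 5S-Deu-L2-4 had about 642 ± 23.4 RPM in AC testes and 554 ± 245 in AC ovaries (SD, n = 4 and 3). 5S-Deu-L2-1 had about 365 ± 33.7 RPM in AC testes and 322 ± 196 in AC ovaries. These RPM values were derived from rlog values by undoing the log2 step and are approximate.

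**Figure D3:**
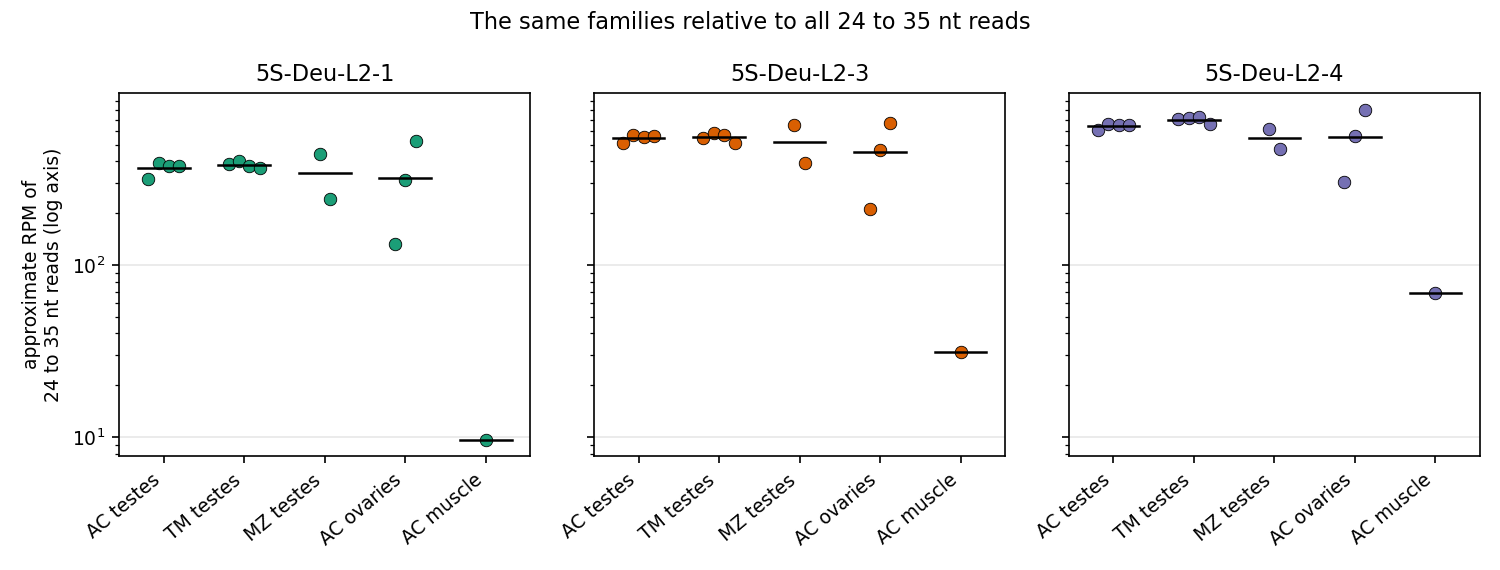
Approximate RPM of each 5S-Deu-L2 family in each library, relative to all 24 to 35 nucleotide reads (log axis), with points for libraries and a bar for the group mean. The AC ovary points of 5S-Deu-L2-4 spread from 305 to 796 and enclose the AC testis points (609 to 663), and muscle lies far below at 68.5 RPM.

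The share of the summed TE values that the SINEs took does not depend on library scaling. It was 0.437, 0.487, 0.490 and 0.474% in AC testes, against 0.775, 0.775 and 0.620% in AC ovaries. The means were 0.472 ± 0.024% in AC testes and 0.723 ± 0.090% in AC ovaries, and the groups did not overlap. A two-sided exact permutation test of the libraries gave p = 0.0571, the smallest p that 4 against 3 libraries allow (adjusted p = 0.171 over 4 comparisons). With these library numbers no share comparison could pass the threshold after adjustment. NA-DNA-22 moved with this share, since it took 1.45 to 1.85% of the TE sum in AC testes and 9.89 to 24.4% in AC ovaries. Scaled to the TE sum, the SINE log2 fold changes shrank to −0.60, −0.55 and −0.66 for 5S-Deu-L2-1, 5S-Deu-L2-3 and 5S-Deu-L2-4 (limma adjusted p = 0.00126, 0.00218 and 0.00218). With NA-DNA-22 left out of that sum they were −0.87, −0.82 and −0.94, and its part in the rest was not tested.

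**Figure D4:**
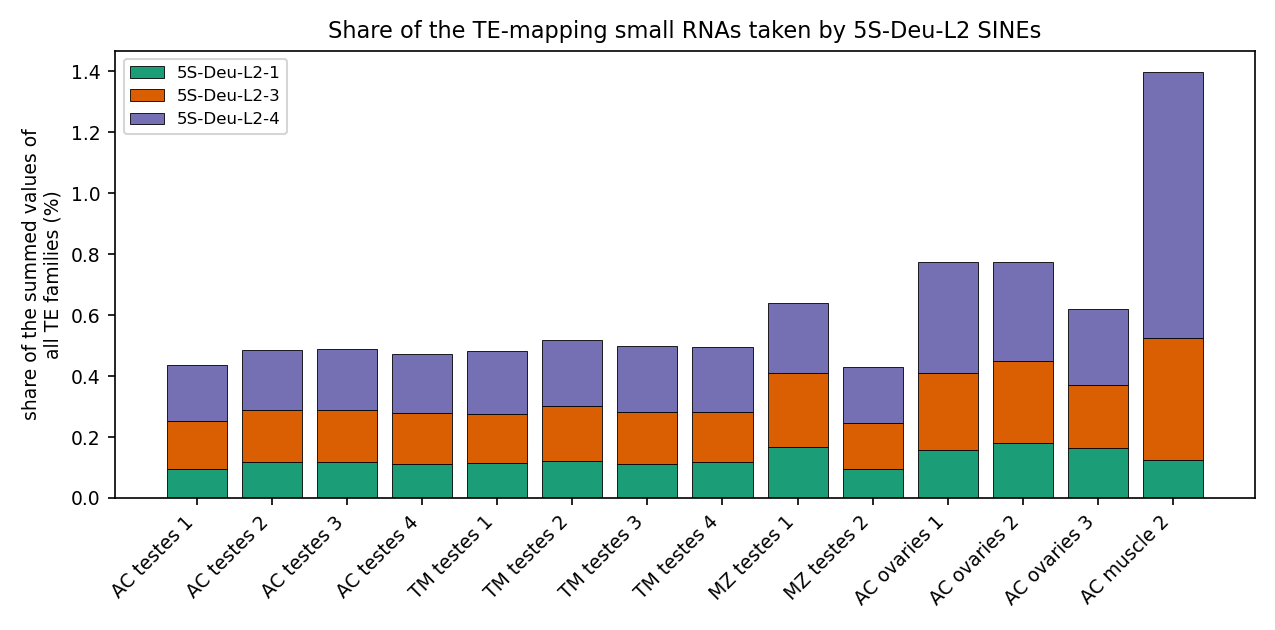
Share (%) of the summed linear values of all TE families taken by the 5S-Deu-L2 families in each library, stacked by family. The 4 AC testis bars reach 0.437 to 0.490%, the 3 AC ovary bars 0.620 to 0.775%, MZ testes replicate 1 reaches 0.642% and muscle 1.40%.

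L2 LINEs, the autonomous elements that carry related tails, were as a group centred on the median of all families. Of the 28 L2 families of the table, 4 were higher and 5 lower in AC testes than in AC ovaries and 19 did not pass the limma test, so 32.1% were called, beside 42.1% of all families. The count of 9 fell to 5 when any of the AC testis libraries was left out. It was 16 per 24 to 35 nucleotide read, where 304 of all 554 families were higher and 1 lower. Their median log2 fold change was −0.01, equal to that of all families, while the SINE median was −0.97. No L2 family fell as far as any of the SINEs. L2-17 averaged 8.60 ± 0.17 in AC testes and 9.37 ± 0.11 in AC ovaries as deposited, the most negative change of an L2 family that passed (−0.78, SE 0.13, limma adjusted p = 0.00131), and per 24 to 35 nucleotide read it was at 0.58 (adjusted p = 0.333). L2-12 averaged 10.42 ± 0.09 in AC testes and 9.84 ± 0.11 in AC ovaries, the most positive (0.58, SE 0.10, limma adjusted p = 0.00178). It was at 1.94 per 24 to 35 nucleotide read (limma adjusted p = 0.00935), beside a median of 1.35 over all families. The summed L2 values were 18.7 to 21.4 times the summed SINE values in AC testes, against 8.58, 9.29 and 14.9 times in AC ovaries. Which L2 family, if any, shares its tail with each SINE was not analysed here.

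Between testes of AC and TM the SINEs differed little, with the reads of both aligned to the AC genome. 5S-Deu-L2-4 was at 11.24, 11.33, 11.35 and 11.28 in AC testes, against 11.42, 11.48, 11.48 and 11.46 in TM testes. The groups did not overlap, and the log2 fold change was −0.16 (SE 0.04, limma adjusted p = 0.0188). 5S-Deu-L2-1 was at 10.55, 10.66, 10.55 and 10.61 in TM testes, within reach of the AC testis values, and its change of −0.11 (SE 0.07) did not pass the test (limma adjusted p = 0.226). 5S-Deu-L2-3 was at 11.07, 11.19, 11.14 and 11.11 in TM testes, and its change of −0.06 (SE 0.05) did not pass either (limma adjusted p = 0.415). Their 95% confidence intervals ran from −0.27 to 0.05 and from −0.17 to 0.06.

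One of 3 SINEs passing compares with 42.4% of all families tested in either direction between AC and TM testes. For 21.8% of families every AC testis library lay below every TM testis library. TM testes replicates 1 and 3 were nearly alike (SD of log2 differences 0.051, beside 0.122 to 0.182 for the other TM pairs). With them averaged, 84 families were higher and 94 lower in AC testes (116 and 119 as separate libraries). 5S-Deu-L2-4 stayed called in that limma fit (adjusted p = 0.0421). The call of 5S-Deu-L2-4 was lost when TM testes replicate 2 (adjusted p = 0.0541) or replicate 3 (0.0598) was left out, when values were scaled to all 24 to 35 nucleotide reads (−0.12, adjusted p = 0.153) and when all 4 gonad groups shared one limma fit (adjusted p = 0.377). The SINE share of the TE sum was 0.472 ± 0.024% in AC testes and 0.499 ± 0.015% in TM testes (SD, n = 4 each, two-sided exact permutation p = 0.0857, adjusted p = 0.171). Among the L2 LINEs 4 families were higher and 5 lower in AC testes than in TM testes (32.1% called, beside 42.4% of all families). They were led by L2-29 (0.38, SE 0.08, limma adjusted p = 0.00407) and L2-9 (−0.45, SE 0.07, limma adjusted p = 0.00117). When all 4 gonad groups shared one fit 3 L2 families were called, beside 81 higher and 82 lower over all families.

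The SINEs were higher in MZ testes replicate 1 than in replicate 2, and 5S-Deu-L2-1 and 5S-Deu-L2-3 were among the families that differed most between these libraries. 5S-Deu-L2-1 was at 11.18 in MZ testes replicate 1 and 10.27 in replicate 2. 5S-Deu-L2-3 was at 11.72 in replicate 1 and 10.96 in replicate 2, and 5S-Deu-L2-4 was at 11.66 and 11.23. By size and regardless of direction, the differences of 0.91, 0.76 and 0.43 ranked 3, 8 and 60 among the 557 families, whose median difference (replicate 1 minus replicate 2) was 0.01. NA-DNA-22 ranked 1, higher in replicate 1 by 2 on the log2 scale.

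MZ testes replicate 1 lay above all of the other 9 testis libraries for each of the 3 SINEs, by 0.52, 0.53 and 0.18 over the next highest library for 5S-Deu-L2-1, 5S-Deu-L2-3 and 5S-Deu-L2-4. It did so for 15.1% of all families. MZ testes replicate 2 was close to the AC testes, and for 5S-Deu-L2-1, 5S-Deu-L2-3 and 5S-Deu-L2-4 it was just below the lowest of them. Per 24 to 35 nucleotide read the differences between the MZ libraries were 0.87, 0.72 and 0.38. NA-DNA-22 took 8.93% of the TE sum in MZ testes replicate 1 and 2.37% in replicate 2, and its part in the SINE difference was not tested.

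**Figure D5:**
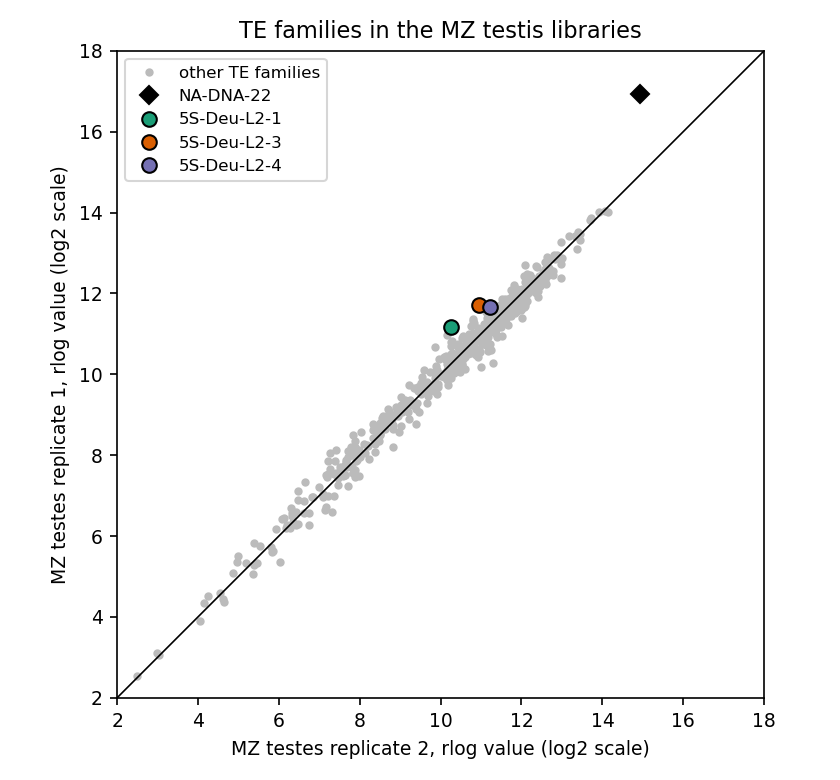
rlog value (log2 scale) of each of the 557 TE families in MZ testes replicate 1 against MZ testes replicate 2, with the line of equal values. The SINEs lie above the line by 0.91, 0.76 and 0.43, and NA-DNA-22 lies furthest above it.

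The sign of the comparisons with MZ turned on which MZ library was kept. AC testes minus MZ testes gave −0.24 (SE 0.22), −0.27 (SE 0.18) and −0.15 (SE 0.12) for 5S-Deu-L2-1, 5S-Deu-L2-3 and 5S-Deu-L2-4, with limma adjusted p = 0.499, 0.350 and 0.438. None passed, beside 16.2% of all families. Without MZ testes replicate 1 the 3 changes were 0.21, 0.11 and 0.07, and without replicate 2 they were −0.70, −0.65 and −0.36. TM testes minus MZ testes gave −0.13 (SE 0.21), −0.21 (SE 0.18) and 0.01 (SE 0.11), with limma adjusted p = 0.679, 0.421 and 0.939, and again none passed, beside 23.3% of all families.

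The TM testes minus MZ testes changes also took opposite signs, depending on which MZ library was left out. Without replicate 1 they were 0.33 for 5S-Deu-L2-1, 0.17 for 5S-Deu-L2-3 and 0.23 for 5S-Deu-L2-4. Without replicate 2 they were −0.59, −0.59 and −0.20. In both cases a lone MZ library was left, so only the sizes of the changes are given. Scaled to all 24 to 35 nucleotide reads, the median log2 fold change of all families against MZ testes was 0.37 for AC testes and 0.38 for TM testes. As deposited these medians were −0.02 and 0.02. The splits became 314 higher and 9 lower (40 and 50 as deposited) for AC, and 377 higher and 14 lower (58 and 71 as deposited) for TM. Scaled to the TE sum they were 67 and 34 for AC, and 76 and 57 for TM. Of the SINEs only 5S-Deu-L2-4 passed under these scalings, at 0.36 per 24 to 35 nucleotide read in TM testes against MZ testes (limma adjusted p = 0.0123), which is −0.01 relative to the median of all families.

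The L2 LINEs gave 1 family higher and 3 lower in AC testes than in MZ testes, and 0 higher and 4 lower in TM testes than in MZ testes. In each comparison 14.3% of the L2 families were called, beside 16.2% of all families for AC and 23.3% for TM. The 4 calls for AC against MZ became 1 without AC testes replicate 1, 3 without replicate 2 or replicate 3, and 2 without replicate 4. No fit with an AC testis library left out kept all 4. Per 24 to 35 nucleotide read they became 21, beside 314 higher and 9 lower over all families. The 4 calls for TM against MZ became 2 without TM testes replicate 2 or replicate 3. Per 24 to 35 nucleotide read these became 21, beside 377 higher and 14 lower over all families.

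L2-30 was lower in both, with averages of 7.44 ± 0.54 in AC testes, 7.19 ± 0.20 in TM testes and 8.64 ± 0.01 in MZ testes (limma adjusted p = 0.0409 for AC and 0.000585 for TM). It stayed called for TM whichever TM testis library was left out. For AC it stayed called in 2 of the fits that left out an AC testis library and was lost in the others. Fits that leave a lone MZ library have no MZ spread and are not counted. L2-7 was at 0.33 in AC testes minus MZ testes (SE 0.09, limma adjusted p = 0.0436), a call lost whichever AC testis library was left out. Scaled to all 24 to 35 nucleotide reads, L2-7 was at 0.72 (limma adjusted p = 0.000687), beside a median of 0.37 over all families. L2-30 was then at −0.80 for AC (limma adjusted p = 0.0578) and −1.09 for TM (0.000397). The summed L2 values were 13.4 times the SINE values in MZ testes replicate 1 and 21.1 times in replicate 2, beside 17.5 to 19.5 times in TM testes.

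Within a library the 3 SINEs kept an order. 5S-Deu-L2-4 had the most reads, then 5S-Deu-L2-3, then 5S-Deu-L2-1, in 13 of 14 libraries, the exception being MZ testes replicate 1, where 5S-Deu-L2-3 was 0.06 above 5S-Deu-L2-4. Differences between SINEs of the same library are free of library scaling. 5S-Deu-L2-4 minus 5S-Deu-L2-3 was 0.21 to 0.26 in AC testes, 0.29 to 0.36 in TM testes and 0.24 to 0.53 in AC ovaries. The AC and TM testes did not overlap in it (two-sided exact permutation p = 0.0286, the smallest p that 4 against 4 libraries allow). Over the 12 such tests the adjusted p was 0.343. None of the 12 passed after adjustment, and none could have. The smallest exact permutation p is 0.0571 for 4 against 3 libraries and 0.133 for 4 against 2. These floors are too high for the threshold after adjustment, so the tests cannot decide whether the differences vary between groups.

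5S-Deu-L2-4 took 40.9 to 42.5% of the SINE sum in AC testes, 41.9 to 43.1% in TM testes, 36.2 and 42.8% in MZ testes and 39.9 to 47.0% in AC ovaries. 5S-Deu-L2-1 took 22.0 to 24.05% in AC testes and 20.4 to 26.3% in AC ovaries. Among the 557 families the SINEs held middle places by read number in AC testes (5S-Deu-L2-4 at 185 to 211, 5S-Deu-L2-3 at 230 to 250, 5S-Deu-L2-1 at 312 to 339 from the top) and higher places in AC ovaries (36 to 124, 74 to 143 and 167 to 202).

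AC muscle had a single library, so its values have no replicate check and no test was made. The paper used muscle as a somatic control and reports that it lacked a clear piRNA-like population. The muscle values are therefore reads of piRNA length and are not taken as piRNA levels. No piRNA signature was checked for the SINE reads of the gonads here, so those values too are reads of piRNA length. The deposited values were higher there than in any AC gonad library for all 3 SINEs, at 11.69 for 5S-Deu-L2-1, 13.39 for 5S-Deu-L2-3 and 14.52 for 5S-Deu-L2-4. All 7 AC gonad libraries were below muscle for 29.6% of all families. AC testes minus AC muscle was −1.21, −2.32 and −3.22 for the 3 SINEs, beside a median of 0.04 over all families, and AC ovaries minus AC muscle was −0.24, −1.40 and −2.18, beside 0.05. 5S-Deu-L2-4 ranked 7 of 557 by read number in muscle, and it took 62.6% of the SINE sum there, with 28.6% for 5S-Deu-L2-3 and 8.83% for 5S-Deu-L2-1.

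These muscle levels rest on few reads, and their direction turned with the scaling. They correspond to about 116 reads of 5S-Deu-L2-4, 53 of 5S-Deu-L2-3 and 16 of 5S-Deu-L2-1, which are back-computed from shrunken values and carry no interval. The SINEs together came to about 110 RPM in muscle, below the 649 to 1992 RPM of the AC gonad libraries. Per such read AC testes minus AC muscle was 5.23, 4.13 and 3.23 for 5S-Deu-L2-1, 5S-Deu-L2-3 and 5S-Deu-L2-4, and AC ovaries minus AC muscle was 4.85, 3.69 and 2.91. This scaling moves every family by the same amount. All 3 SINEs therefore stayed below the median of all families in both comparisons, as they were in the deposited values. In both gonads 5S-Deu-L2-1 stood furthest above muscle per read and 5S-Deu-L2-4 least.

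The families most like each SINE over the 14 libraries were named by the root mean square (RMS) difference of values centred on each family's own mean, a description with no test, in which muscle and the AC ovaries weigh heavily. For 5S-Deu-L2-1 they were PIF-Harbinger-8 (a DNA transposon, RMS difference 0.239), the internal part of ERV1-9 (an endogenous retrovirus, 0.244) and the long terminal repeat of Gypsy-86 (0.251), against a median of 0.552 over all other families. For 5S-Deu-L2-3 they were Rex-Babar-8 (a LINE, 0.248), TcMar-Tc1-1 (a DNA transposon, 0.249) and the internal part of Gypsy-15 (0.251), against a median of 0.719. For 5S-Deu-L2-4 they were Rex-Babar-8 (0.294), TcMar-Tc1-17 (0.330) and Dong-R4-2 (a LINE, 0.339), against a median of 0.912.

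Among the SINEs, 5S-Deu-L2-3 and 5S-Deu-L2-4 were nearest each other (RMS difference 0.253). 5S-Deu-L2-3 was the closest of all families to 5S-Deu-L2-4, while 5S-Deu-L2-4 stood at place 4 from 5S-Deu-L2-3. 5S-Deu-L2-1 was 0.302 from 5S-Deu-L2-3 (place 11) and 0.537 from 5S-Deu-L2-4 (place 259). The latter is near the median of 0.552 over all other families, so 5S-Deu-L2-4 was about as far from it as a typical family. Rex-Babar-8, near both 5S-Deu-L2-3 and 5S-Deu-L2-4, averaged 12.10 in AC testes, 11.99 in TM testes, 11.96 in MZ testes, 12.53 in AC ovaries and 14.42 in muscle.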

How the data were processed

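The authors trimmed adapters (cutadapt 1.15), selected a length of 24 to 35 nucleotides, aligned the reads with STAR 2.5.4b to the AC genome (fAstCal1.2, used for AC, MZ and TM), allowing up to 100 positions and 2 mismatches and reporting 1 at random, and counted them over the curated TE annotation with featureCounts 1.6.0. The deposited values are DESeq2 rlog values on the log2 scale, and were used as they are. The libraries were made with 1 kit and 12 cycles of PCR and sequenced on 1 lane, so no comparison within batches was made.

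Families were compared with limma 3.58.1 in R 4.3.3 (trended moderation, adjustment after Benjamini-Hochberg, threshold 0.05), each comparison on its own pair of groups. The 554 families tested were those whose mean rlog value reached 3.32, the log2 of 10. The fit was tested on simulated data. Single values were compared with two-sided exact permutation tests of the libraries. p-values measure the spread between libraries of a group, without a check that the fish were unrelated. TM testes replicates 1 and 3 were the closest pair of libraries of any group (SD of log2 differences over all families 0.051). Whether they come from separate fish could not be checked. The main tests count them as separate libraries, and averaging them is given as an alternative. Reads and RPM were computed by undoing the log2 step and from the library totals in the study's supplement, so they are approximate. The rlog values do not give counts back, so count models were not run. The other 4 deposited tables name no TE class and were not used.

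Named families are the 3 SINEs, the 3 nearest families of each in other classes or superfamilies, and for each comparison the L2 family with the largest change in each direction among those that passed. NA-DNA-22 was added after its values were seen. Members, lists and tests were chosen with earlier results of these data known. Alternatives were no minimum or one of 100, other scalings, all 4 gonad groups in one fit, no mean trend, the replicate number as a block, TM testes replicates 1 and 3 averaged, and each library left out. Tables and plots were made with pandas 2.3.3, numpy 2.4.6, matplotlib 3.10.9 and scipy 1.17.1 under Python 3.11.15. No sequence of these families was read from the files, so none is shown.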

Additional observations from a re-analysis of the deposited data

Results flagged for a closer look

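In AC testes, 5S-Deu-L2-4 minus 5S-Deu-L2-1 was 0.95 in replicate 1, far above the other AC testis libraries, which lay within 0.77 and 0.78. Replicate 1 had the lowest 5S-Deu-L2-1 value of the AC testes (10.29). Of 14 groups of 4 libraries searched in this way 1 stood out, and chance alone gives about 1 in 20.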

How the results depend on the processing

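The SINE changes between AC testes and AC ovaries stayed negative and past the threshold under the other minimum values, scaling to the TE sum with or without NA-DNA-22, the single fit of all gonad groups, no mean trend and every left-out library. Scaling to all 24 to 35 nucleotide reads alone reversed them (0.39, 0.44 and 0.32). The same scaling reversed AC testes minus MZ testes (0.15, 0.12 and 0.24), TM testes minus MZ testes for 5S-Deu-L2-1 and 5S-Deu-L2-3 (0.22 and 0.14, with 0.36 and a call for 5S-Deu-L2-4) and the SINE share (by 0.0229, 0.0144 and 0.0226 percentage points of all such reads higher in AC testes than AC ovaries, AC testes than MZ testes and TM testes than MZ testes). The 5S-Deu-L2-4 call between AC and TM testes was lost under it (−0.12) and in the single fit of all gonad groups (−0.16). The cause was not tested.

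For AC muscle that scaling gave 5.23, 4.13 and 3.23 (AC testes minus AC muscle) and 4.85, 3.69 and 2.91 (AC ovaries minus AC muscle) for 5S-Deu-L2-1, 5S-Deu-L2-3 and 5S-Deu-L2-4. It moved every family alike, so these changes stayed below the median of all families. Scaling to the TE sum gave −0.16, −1.27 and −2.17 for AC testes and 0.43, −0.72 and −1.50 for AC ovaries, and without NA-DNA-22 −0.82, −1.92 and −2.82, and 0.051 and −1.10 for 5S-Deu-L2-1 and 5S-Deu-L2-3. The alternatives for muscle and for the L2 counts were chosen after seeing the data.

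Called L2 families per 24 to 35 nucleotide read numbered 16 (AC testes against ovaries), 21 (AC against MZ testes) and 21 (TM against MZ testes). As deposited they numbered 9, 4 and 4. Over all 554 families that scaling gave 304 higher and 1 lower, 314 and 9, and 377 and 14. The L2 counts are therefore not read as particular to L2 LINEs. The single fit of all groups called 3 L2 families for AC against TM testes, beside 81 higher and 82 lower over all families. It called 2 for TM against MZ testes, beside 24 and 36. With TM testes replicates 1 and 3 averaged, 2 were called for TM against MZ testes, beside 23 and 40.

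Replicate numbers did not pair the libraries. Deviations of same-numbered libraries correlated at −0.10 to −0.05 (AC testes and ovaries), 0.02 to 0.18 (AC and TM testes), −0.11 to −0.08 (AC and MZ) and −0.36 to −0.21 (TM and MZ), and 0 of 6 and 3 of 8 libraries were closest to their own number in the first pair of comparisons. With the number as a block, the SINE changes were −0.98, −0.92 and −1.03 for AC testes minus AC ovaries and no SINE call changed. L2 calls became 5, 2 and 1 (AC testes against ovaries, AC against MZ, TM against MZ). Over all families the block gave 87 higher and 95 lower, 15 and 33, and 5 and 16 in the same order. TM against MZ also fell to 24 and 36 in the single fit and 23 and 40 with TM testes replicates 1 and 3 averaged.

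With 1 library left out at a time, 5S-Deu-L2-4 in AC minus TM testes ran over −0.18 to −0.14. AC testes minus MZ testes ran over −0.70 to 0.21, −0.65 to 0.11 and −0.36 to 0.066 for 5S-Deu-L2-1, 5S-Deu-L2-3 and 5S-Deu-L2-4, and TM testes minus MZ testes over −0.59 to 0.33, −0.59 to 0.17 and −0.20 to 0.23. The SINE share ran over −0.170 to 0.0425 percentage points (AC minus MZ) and −0.143 to 0.0699 (TM minus MZ). Within a library, AC testes minus AC ovaries ran over −0.21 to 0.091 for 5S-Deu-L2-4 minus 5S-Deu-L2-1 and −0.040 to 0.12 for 5S-Deu-L2-3 minus 5S-Deu-L2-1. AC minus MZ testes ran over −0.047 to 0.29 (5S-Deu-L2-4 minus 5S-Deu-L2-3), −0.15 to 0.34 (5S-Deu-L2-4 minus 5S-Deu-L2-1) and −0.10 to 0.049 (5S-Deu-L2-3 minus 5S-Deu-L2-1), and TM minus MZ testes over −0.10 to 0.39 for 5S-Deu-L2-4 minus 5S-Deu-L2-1. Called L2 families ran over 5 to 12 in AC testes against ovaries and 6 to 10 in AC against TM. The share of all families called in these fits is not given here, so these counts describe their stability only.

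The default annotation was not run, since its table names no SINE. The muscle values rest on 1 shallow library, and rlog values shrink differences that rest on few reads.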
